A study of Mus musculus with 12 samples.

Results

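The 42 genes described here encode the extracellular side of Wnt signalling in mouse: 19 Wnt ligands (Wnt), 10 Frizzled receptors (Fzd), 4 secreted Frizzled-related proteins (Sfrp), 5 members of the Dickkopf group (Dkk, with Dkk-like 1) and 4 R-spondins (Rspo). They are all protein-coding genes in the deposited table whose symbol begins with one of those family names, 42 of 22058 protein-coding and 54555 listed genes. The rule uses names and gene type only, with no expression value. The RNA came from R1 cells, an established line of mouse embryonic stem cells (mESCs) grown on gelatin with leukemia inhibitory factor (LIF), the cytokine that keeps these cells undifferentiated. Libraries numbered 3 in each of 4 groups. The mESC controls were kept undifferentiated without inhibitor, and a second group of mESCs received 25 μM Ac45SGlcNAc for 48 h. Ac45SGlcNAc inhibits OGT, the enzyme that adds the sugar O-GlcNAc to proteins of the nucleus and cytoplasm. The RA controls were pre-treated with the vehicle DMSO, and the fourth group with 25 μM Ac45SGlcNAc for 48 h. Both then spent 48 h in medium without LIF that contained retinoic acid (RA) at 1 μM. RA and the loss of LIF came together in both RA groups, so their effects cannot be told apart. The sources used here do not say whether the inhibitor stayed in the medium during RA exposure. All groups come from 1 cell line, and the libraries measure whole cultures.

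Wnt proteins are secreted lipid-modified ligands that bind Frizzled receptors together with the coreceptors Lrp5 or Lrp6, and the canonical branch of the pathway keeps beta-catenin from being degraded so that it can act with TCF and LEF factors in the nucleus. Sfrp proteins resemble the ligand-binding domain of Frizzled and bind Wnts outside the cell, Dickkopf proteins such as Dkk1 block Lrp5 and Lrp6, and R-spondins raise the number of Frizzled receptors at the surface by way of Lgr receptors and the ubiquitin ligases Znrf3 and Rnf43. In mESCs Wnt signalling is known to favour self-renewal, and in the embryo it shapes the primitive streak and the anterior-posterior axis, where RA also acts.

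The libraries held 15553627 to 17833464 fragments assigned to genes, and 12931 to 13993 genes reached 1 FPKM (fragments scaled to gene length and library size). The 8 pluripotency markers on the list used (among them Pou5f1, Nanog and Esrrb) summed to 5955 to 6012 FPKM in mESC controls and 5595 to 6025 with inhibitor. Their sum was 2482 to 3086 FPKM in RA controls and 2011 to 2242 in RA-treated cells with inhibitor, and all 8 fell with RA. These sums are mostly Dppa5a, with a mean of 3435 FPKM in mESC controls and 2436 in RA controls. With RA without inhibitor Dppa5a fell least (log2 change -0.50), while the median of the 8 was -3.03, so the sums understate the fall of most of the list. Of markers of other cells, extraembryonic endoderm genes summed to 6.83 to 7.38, 7.44 to 8.30, 18.7 to 21.9 and 21.8 to 23.2 FPKM in the same order, with Afp, Ttr and Apoa1 under 1 FPKM in every library. Trophoblast-list genes, whose sum is mostly the keratins Krt8 and Krt18, summed to 91.4 to 100.04, 92.8 to 109, 276 to 358 and 142 to 157 FPKM. Neural markers, whose sum is mostly Tubb3, summed to 41.0 to 44.6, 47.0 to 54.6, 23.9 to 26.0 and 19.3 to 23.4 FPKM, primitive streak and mesoderm markers to 4.21 to 5.31, 4.41 to 6.24, 5.02 to 6.38 and 7.06 to 8.71, and fibroblast markers to 15.4 to 16.6, 14.3 to 16.2, 21.1 to 23.8 and 22.2 to 23.5, with Dcn listed at 0 throughout. Of the 5 tested neural markers RA without inhibitor raised 3, Sox1, Nes and Map2, and lowered Tubb3 and Neurod1, so the fall of the neural sum is not that of most of the list. Sox1 and Map2 passed the filter described below only through RA libraries and Neurod1 only through mESC libraries, so their direction was built in. The inhibitor acts on the OGT enzyme, so Ogt mRNA does not measure its effect directly. That mRNA rose from a mean of 18.1 to 40.8 FPKM with the inhibitor in mESCs (log2 change 1.14, SE 0.096, limma adjusted p = 0.000326), and stood at 23.2 without and 26.4 FPKM with it in RA-treated cells (0.19, SE 0.096, adjusted p = 0.167).

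A gene was tested where it reached 1 FPKM in at least 3 libraries, which 26 of the 42 genes did: 9 of 19 Wnts, 9 of 10 Frizzleds, 4 of 4 Sfrps, 2 of 5 in the Dickkopf group and 2 of 4 R-spondins. Of these, 20 passed in both mESCs and RA-treated cells. Fzd1, Wnt3, Wnt4, Wnt7a and Wnt8a passed only through the RA libraries and Sfrp4 only through the mESC libraries, so for these 6 a difference between the states was built into the filter. The other 16 were Wnt1, Wnt2, Wnt2b, Wnt3a, Wnt5a, Wnt8b, Wnt9b, Wnt10a, Wnt10b, Wnt16, Dkk1, Dkk2, Dkk4, Fzd6, Rspo2 and Rspo3, and their levels are given further on. Changes are log2 fold changes on the log2(FPKM + 1) scale with their standard error (SE), from limma, and p-values are adjusted over all 14866 genes tested. A gene is said to have risen or fallen where that p is under 0.05.

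RefSeq sequence (GRCm38.p6) was matched for 28 of the 42 genes, with 31 promoters in all. The 6 printed belong to genes on which the results turn: Sfrp2 and Sfrp5 rose with both RA and the inhibitor, and, on the log2(FPKM + 1) scale, Wnt9a and Rspo4 had the largest rises with RA and Wnt6 and Fzd5 the largest falls. Each is the 250 bases that end just before the start in RefSeq, 5′ to 3′ on the gene's strand, with CG dinucleotides, the sites of DNA methylation, in capitals. For Wnt9a and Fzd5 the window reaches slightly into the gene span given below, which comes from the deposited coordinates.
Sfrp2 (chr3:83766071-83766320, + strand): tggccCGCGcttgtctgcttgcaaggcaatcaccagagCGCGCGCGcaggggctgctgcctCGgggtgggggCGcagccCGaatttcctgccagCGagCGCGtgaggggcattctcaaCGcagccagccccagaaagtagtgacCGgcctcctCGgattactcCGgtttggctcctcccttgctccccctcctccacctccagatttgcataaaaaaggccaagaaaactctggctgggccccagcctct
Sfrp5 (chr19:42202253-42202502, - strand): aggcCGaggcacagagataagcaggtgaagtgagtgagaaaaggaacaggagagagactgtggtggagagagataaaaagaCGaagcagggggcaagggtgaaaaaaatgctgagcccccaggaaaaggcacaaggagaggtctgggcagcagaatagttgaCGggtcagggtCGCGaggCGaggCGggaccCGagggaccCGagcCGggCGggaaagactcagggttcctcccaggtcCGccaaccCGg
Wnt9a (chr11:59306680-59306929, + strand): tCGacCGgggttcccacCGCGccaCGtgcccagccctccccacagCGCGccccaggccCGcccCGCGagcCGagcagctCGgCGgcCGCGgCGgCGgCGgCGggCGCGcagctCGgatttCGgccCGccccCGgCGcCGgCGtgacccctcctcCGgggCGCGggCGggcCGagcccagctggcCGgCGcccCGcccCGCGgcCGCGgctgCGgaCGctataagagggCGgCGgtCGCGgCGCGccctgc
Rspo4 (chr2:151842677-151842926, + strand): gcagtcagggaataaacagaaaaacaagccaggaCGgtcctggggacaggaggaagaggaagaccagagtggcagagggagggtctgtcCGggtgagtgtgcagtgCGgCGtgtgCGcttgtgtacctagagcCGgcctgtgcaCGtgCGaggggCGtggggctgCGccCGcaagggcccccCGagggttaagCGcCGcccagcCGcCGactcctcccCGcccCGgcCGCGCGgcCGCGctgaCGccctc
Wnt6 (chr1:74771642-74771891, + strand): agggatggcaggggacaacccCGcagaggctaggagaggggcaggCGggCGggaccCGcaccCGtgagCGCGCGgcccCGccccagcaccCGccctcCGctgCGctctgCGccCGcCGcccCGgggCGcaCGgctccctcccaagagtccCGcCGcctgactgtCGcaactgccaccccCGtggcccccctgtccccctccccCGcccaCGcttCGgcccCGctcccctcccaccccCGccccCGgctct
Fzd5 (chr1:64737751-64738000, - strand): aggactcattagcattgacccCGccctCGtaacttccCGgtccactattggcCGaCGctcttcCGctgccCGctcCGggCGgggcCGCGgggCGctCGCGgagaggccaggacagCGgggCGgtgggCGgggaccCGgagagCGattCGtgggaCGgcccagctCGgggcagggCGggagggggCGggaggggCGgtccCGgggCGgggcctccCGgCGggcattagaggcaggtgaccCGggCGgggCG
The 6 promoters held from 13 CG dinucleotides in Sfrp5 to 48 in Wnt9a, and their G and C content ran from 59.6% in Sfrp5 to 84.4% in Wnt9a. Over the 31 promoters the median was 22 CG dinucleotides and 68.0% G and C, against 16 and 60.4% in 12242 promoters of tested protein-coding genes and 6 and 52.4% in all 32851 promoters of the table. The rising and falling genes shown did not separate by this measure. The letters CTTTGA, the core of the TCF and LEF recognition sequence, were searched on both strands of the same window and lay in 4 of the 31 promoters (12.9%), those of Dkk1, Fzd1, Wnt11 and Wnt5b, against 13.8% of all promoters and 10.2% of those of tested genes. The longer forms CTTTGAT or CTTTGAA, which contain it, lay in 3 (9.68%), against 7.48% and 5.02%. The retinoid receptor half-site AGGTCA lay in 2 (6.45%), those of Dkkl1 and Wnt16, against 14.0% and 10.8%, and its variant AGTTCA in 1 (3.23%), that of Wnt3, against 11.8% and 8.36%. Paired half-sites with the 2- or 5-base spacing named DR2 and DR5 were in 0 of the 31, and in 0.174% and 0.0883% of all promoters. None of the 6 promoters printed held any of the sequences searched. The form GGGTCA, which the search for paired half-sites allowed, was not searched on its own. It or its reverse complement TGACCC can be read in the Sfrp5, Wnt9a and Fzd5 sequences printed, so absence of half-sites is not shown.

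RA without inhibitor raised 8 of the 9 tested Wnt ligands and both tested R-spondins, and lowered Wnt6 and Fzd5. Of the 26 tested genes 24 changed, against a background of 70.9% of all tested genes, with 19 higher (background 33.7%) and 5 lower (37.2%). The groups did not overlap for those 24 genes (background 73.2%). By the ratio of group means 18 of them changed at least 2-fold, 14 had a log2(FPKM + 1) change of at least 1, and the median over the 26 was 0.88 against -0.035 over all genes. The counts and median include Fzd1, Wnt3, Wnt4, Wnt7a and Wnt8a, which passed the filter only through RA libraries. They also include Sfrp4, which passed only through mESC libraries. For these genes the filter built in the direction, so their part of the counts is no test of it. As whole cultures were measured, a change in the number of cells of a type and a change in RNA per cell cannot be told apart in any result here. What a replicate number marks is not stated in the labels. The p-values therefore reflect only how far these libraries differ from each other, and that spread may be technical. The scaling also matters: fragments per library stood at 1.06 to 1.11 times the total implied by the deposited FPKM in mESC libraries and 0.883 to 0.934 times in RA libraries. Scaled to TPM instead, where the length-scaled values of each library have 1 common sum, the median over all genes moved from -0.035 to 0.16 and higher genes went from 47.5% to 63.6% of those called, and among the 26 genes 20 were higher and 4 lower.

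Among the ligands, Wnt9a (chr11:59306928-59333552, GRCm38) rose most on the log2(FPKM + 1) scale, while by the ratio of means Wnt8a (8.69-fold) and Wnt7a (7.81-fold), both from under 1 FPKM, rose more. Its level was 2.01, 1.56 and 1.87 FPKM in the mESC controls and 11.3, 9.34 and 9.67 in the RA controls. Every RA library stood above every mESC library, and the mean was 5.58-fold higher (log2 change 1.98, SE 0.090, adjusted p = 4.55e-09). Wnt4, a ligand with roles in kidney and gonad formation, was at 0.682, 0.555 and 0.870 FPKM in mESC controls and 2.84, 2.79 and 2.94 in RA controls (1.18, SE 0.081, adjusted p = 1.22e-07). Wnt8a, a ligand of the primitive streak and its derivatives, went from 0.182, 0.152 and 0.433 to 2.24, 2.39 and 2.03 FPKM (1.36, SE 0.12, adjusted p = 1.09e-06). Wnt7a went from 0.301, 0.0419 and 0.179 to 1.51, 1.37 and 1.19 FPKM (1.01, SE 0.10, adjusted p = 4.17e-06) and Wnt3, needed for the primitive streak to form, from 0.227, 0.497 and 0.471 to 1.83, 1.25 and 1.74 (0.90, SE 0.11, adjusted p = 1.81e-05). All 4 were under 1 FPKM in every mESC control and above it in every RA control, which is how they passed the filter. Smaller rises were those of Wnt5b (0.68, SE 0.14, adjusted p = 0.00106), Wnt11 (0.50, SE 0.12, adjusted p = 0.00272) and Wnt7b (0.46, SE 0.080, adjusted p = 0.000279), the first pair known mainly for signalling that does not use beta-catenin.

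Wnt6 (chr1:74771892-74785322) was the tested ligand that fell. It stood at 4.21, 4.91 and 5.02 FPKM in the mESC controls and 1.35, 1.73 and 1.77 in the RA controls (-1.13, SE 0.092, adjusted p = 5.47e-07), 2.91-fold lower in mean, with no overlap. The make-up of ligand mRNA was therefore different in the 2 states. Wnt6 held 29.3% ± 2.08 (SD, n = 3) of the summed Wnt FPKM in mESC controls and 4.90% ± 0.949 in RA controls, while Wnt9a went from 11.3% ± 1.71 to 30.4% ± 1.60. In mESC controls the order began with Wnt6 and Wnt7b, whose libraries overlapped, then Wnt9a and Wnt11. In RA controls it was Wnt9a, Wnt7b and Wnt4, with no overlap between neighbours. The summed Wnt level was 16.1 ± 1.36 FPKM in mESC controls and 33.3 ± 2.22 in RA controls.

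R-spondin mRNA rose with the ligands. Rspo4 (chr2:151842927-151874668) was at 1.53, 1.35 and 1.54 FPKM in mESC controls and 8.75, 9.19 and 10.3 in RA controls, 6.40-fold higher in mean (2.07, SE 0.087, adjusted p = 2.55e-09), the largest change of the 26 on the log2(FPKM + 1) scale. Rspo1 went from 2.49, 2.19 and 1.66 to 6.82, 7.21 and 6.26 FPKM (1.32, SE 0.11, adjusted p = 8.25e-07). Neither gene's groups overlapped. Their order reversed, with Rspo1 above Rspo4 in every mESC control and below it in every RA control.

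**Figure D1:**
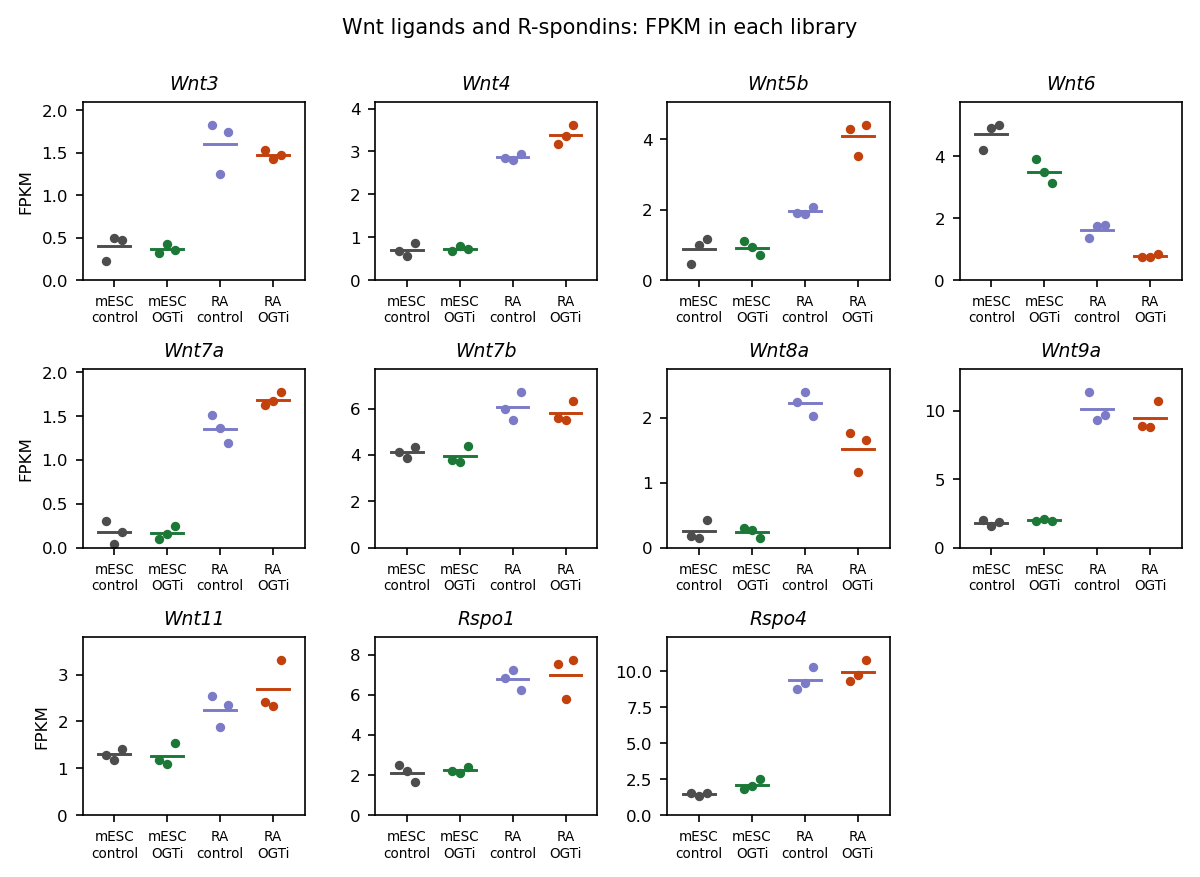
FPKM of the 9 tested Wnt ligands and 2 tested R-spondins in each library (points) with the group mean (bars), in mESCs and RA-treated cells without (control) and with the OGT inhibitor (OGTi); each panel has its own axis from 0. Wnt6 is lower in the RA groups and the other 10 genes are higher, while Wnt4, Wnt5b, Wnt6, Wnt7a and Wnt8a also separate by inhibitor within the RA groups.

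Among the Frizzled receptors 5 rose and 3 fell, and their sum was 68.1 ± 2.09 FPKM in mESC controls and 57.2 ± 1.69 in RA controls. That sum carries the scaling difference between mESC and RA libraries given above, so a loss of Frizzled RNA is not shown. Fzd5 (chr1:64730558-64737751) was at 22.5, 21.1 and 22.8 FPKM in mESC controls and 6.57, 6.29 and 5.22 in RA controls, 3.67-fold lower (-1.72, SE 0.072, adjusted p = 2.3e-09). Fzd2 (chr11:102604396-102608058) went the other way, from 2.03, 1.78 and 1.99 to 9.61, 8.08 and 9.43 FPKM, 4.67-fold higher (1.77, SE 0.087, adjusted p = 8.25e-09). In both genes the groups lay far apart. Of the summed Frizzled level, Fzd5 took 32.5% ± 1.57 in mESC controls and 10.5% ± 1.24 in RA controls, and Fzd2 2.84% ± 0.186 and 15.8% ± 1.05. Fzd7, a receptor linked to pluripotency in embryonic stem cells, had the highest level in both, at 26.2, 26.4 and 24.3 FPKM and 21.9, 21.6 and 20.4 (-0.25, SE 0.048, adjusted p = 0.000543). That small fall was lost under TPM scaling, where its adjusted p was 0.759. Fzd10 also fell, from 7.80, 7.10 and 6.97 to 4.23, 3.44 and 4.42 FPKM (-0.72, SE 0.087, adjusted p = 1.46e-05).

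Rises were seen in Fzd1 (1.16, SE 0.10, adjusted p = 1.24e-06), Fzd4 (0.87, SE 0.070, adjusted p = 5.01e-07), Fzd8 (0.61, SE 0.11, adjusted p = 0.000447) and Fzd3 (0.43, SE 0.11, adjusted p = 0.00385). Fzd4, also the receptor for the non-Wnt ligand norrin, was at 1.96, 1.73 and 1.73 FPKM in mESC controls and 4.35, 4.15 and 3.86 in RA controls. Fzd1 passed the filter only through the RA libraries, with 0.273, 0.475 and 0.285 against 1.72, 1.94 and 2.33 FPKM. Fzd3, known for its part in axon guidance, had 1.18, 1.27 and 1.01 against 1.85, 1.98 and 1.85 FPKM. Fzd9 stood at 7.15, 5.91 and 5.82 and 5.97, 5.0 and 6.91 FPKM, overlapping groups with a change of -0.073, SE 0.11, adjusted p = 0.568.

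**Figure D2:**
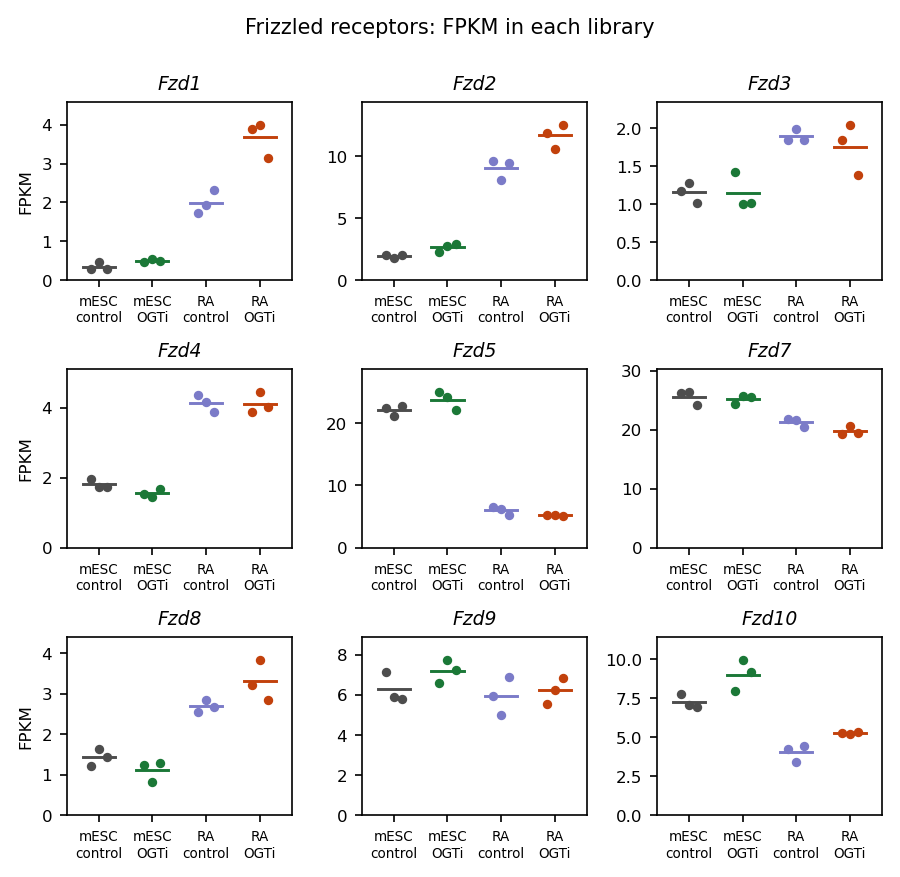
FPKM of the 9 tested Frizzled receptors in each library (points) with the group mean (bars), in mESCs and RA-treated cells without (control) and with the OGT inhibitor (OGTi); each panel has its own axis from 0. Fzd5 is lower and Fzd2 higher in both RA groups, Fzd1 is highest in RA-treated cells with inhibitor, and Fzd9 overlaps throughout.

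Secreted antagonists differed among themselves. Sfrp5 (chr19:42197971-42202252) rose with RA, from 2.74, 1.82 and 2.38 FPKM in mESC controls to 11.1, 9.01 and 8.63 in RA controls (1.68, SE 0.11, adjusted p = 1.17e-07). Sfrp2 (chr3:83766321-83774316) went from 3.57, 4.35 and 4.15 to 10.1, 8.68 and 8.80 FPKM (1.02, SE 0.082, adjusted p = 4.58e-07). Neither gene's groups overlapped, and both means were over 2-fold higher. Sfrp4 fell from 1.48, 1.70 and 1.54 to 0.468, 0.589 and 0.431 FPKM (-0.78, SE 0.10, adjusted p = 2.66e-05), and passed the filter only through the mESC libraries. Sfrp1 (chr8:23411502-23449632), the most abundant of the 4 in both groups, was at 13.8, 13.0 and 12.5 FPKM and 13.3, 12.3 and 12.9 (-0.031, SE 0.050, adjusted p = 0.594). Its sign depends on the scaling: the change was 0.19 with TPM (adjusted p = 0.00777) and 0.18 with total fragments (adjusted p = 0.00454). Dkk3, a divergent Dickkopf member, rose from 7.61, 7.93 and 6.76 to 16.0, 15.6 and 16.8 FPKM (1.03, SE 0.057, adjusted p = 2.09e-08). Dkkl1, best known from developing sperm and from trophoblast, rose from 6.94, 6.66 and 6.51 to 17.9, 15.5 and 16.0 FPKM (1.18, SE 0.079, adjusted p = 9.99e-08).

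In cells treated with the inhibitor, RA changed 25 of the 26 genes (background 68.7%), 20 higher (background 32%) and 5 lower (36.7%). Of those changed, 19 moved at least 2-fold by the ratio of means. The groups did not overlap for 24 of the 26 (background 71.9%), and the median was 1.01 against -0.043 over all genes. These figures again include the genes that passed the filter through a single state, whose direction it built in. This comparison has its own libraries on both sides. The genes that fell were again Fzd5 (-1.99, SE 0.072, adjusted p = 9.21e-10), Wnt6 (-1.34, SE 0.092, adjusted p = 1.35e-07), Fzd10 (-0.67, SE 0.087, adjusted p = 3.03e-05), Sfrp4 (-0.57, SE 0.10, adjusted p = 0.000342) and Fzd7 (-0.33, SE 0.048, adjusted p = 6.37e-05). Fzd7 lost that call under TPM and total-fragment scaling here too. With TPM, higher genes were 66.2% of those called over all genes, against 46.6%, and 20 of the 26 were higher and 4 lower. Sfrp1 rose in this comparison (0.35, SE 0.050, adjusted p = 6.2e-05). The largest rises on the log2(FPKM + 1) scale were those of Sfrp5 (1.97, SE 0.11, adjusted p = 3.33e-08), Rspo4 (1.82, SE 0.087, adjusted p = 7.59e-09), Fzd2 (1.80, SE 0.087, adjusted p = 7.85e-09) and Wnt9a (1.80, SE 0.090, adjusted p = 1.06e-08).

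In mESCs kept undifferentiated, the inhibitor raised 3 of the 4 Sfrp genes and made no 2-fold change in any of the 26. In all, 7 changed (background 7.78%), 5 higher (4.6%) and 2 lower (3.18%), and the groups did not overlap for 11 (29.8%). Sfrp1 stood at 13.8, 13.0 and 12.5 FPKM in controls and 17.8, 17.8 and 18.7 with inhibitor, 1.38-fold higher in mean (0.44, SE 0.050, adjusted p = 0.00176). It is the one member whose call held in each of its 15 alternative fits here, with adjusted p from 0.000155 to 0.0225. Sfrp5 went from 2.74, 1.82 and 2.38 to 3.88, 3.23 and 4.18 FPKM (0.53, SE 0.11, adjusted p = 0.0208), and kept its call in 10 of 15 alternatives. Sfrp2 went from 3.57, 4.35 and 4.15 to 5.10, 5.77 and 4.79 FPKM (0.31, SE 0.082, adjusted p = 0.0432), and kept it in 2 of 15, losing it in all 6 fits that left out a library. All 3 genes had every inhibitor library above every control.

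Dkk3 rose from 7.61, 7.93 and 6.76 to 9.29, 8.92 and 8.72 FPKM (0.24, SE 0.057, adjusted p = 0.0265) and Rspo4 from 1.53, 1.35 and 1.54 to 1.83, 2.04 and 2.49 (0.33, SE 0.087, adjusted p = 0.0422). Dkkl1 fell from 6.94, 6.66 and 6.51 to 5.29, 5.07 and 4.19 FPKM (-0.40, SE 0.079, adjusted p = 0.0140) and Wnt6 from 4.21, 4.91 and 5.02 to 3.92, 3.49 and 3.13 (-0.34, SE 0.092, adjusted p = 0.0457). These 4 were close to the threshold except Dkkl1: calls were kept in 9 of 15 alternatives for Dkk3, 7 of 15 for Rspo4, 13 of 15 for Dkkl1 and 3 of 14 for Wnt6. Of the 9 Frizzled receptors limma called 0, with 2 at an unadjusted p under 0.05 and 0 called by limma-voom on fragments. Fzd2, at 2.03, 1.78 and 1.99 and 2.27, 2.76 and 2.89 FPKM (0.31, SE 0.087, adjusted p = 0.0544), and Fzd10, at 7.80, 7.10 and 6.97 and 7.95, 9.95 and 9.17 (0.27, SE 0.087, adjusted p = 0.0828), came nearest, and in both genes the groups did not overlap. Fzd2 was called in 6 of its 15 alternatives, among them TPM and total-fragment scaling, with adjusted p from 0.0292 to 0.164, and Fzd10 in 1 of 15.

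In RA-treated cells the inhibitor changed 10 of the 26 genes (background 31.9%), with 7 higher (17.6%), 3 lower (14.3%) and groups that did not overlap for 13 (44.1%). The share called was thus near that of all genes. With TPM, higher genes went from 55.3% to 66.6% of those called over all genes, and 7 of the 26 were higher and 2 lower. The genes that rose were Sfrp1, Sfrp2, Sfrp5, Fzd1, Fzd2, Fzd10 and Wnt5b, and those that fell were Wnt6, Wnt8a and Dkkl1. The comparison uses the same RA controls as that of RA without inhibitor, so a library high or low among them enters both. Markers of cell state moved in the same comparison. Of the 8 pluripotency markers 6 were lower and 1 (Esrrb) higher, with a median of -0.38 and sums that did not overlap. Of 7 tested trophoblast-list genes Krt8 and Krt18 were lower and Gata3 higher, and the median was 0.14. Foxa2 and Gata4 of the extraembryonic endoderm list and Eomes of the primitive streak list were higher, Tubb3 and Map2 of the neural list lower, and Col1a2 of the fibroblast list higher. The part of these markers in the results was not tested.

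Sfrp1 was at 13.3, 12.3 and 12.9 FPKM in RA controls and 22.3, 23.9 and 23.9 with inhibitor, 1.82-fold higher in mean (0.82, SE 0.050, adjusted p = 2.09e-06). Sfrp5 was at 11.1, 9.01 and 8.63 and 17.6, 17.8 and 17.2 FPKM, 1.83-fold higher (0.82, SE 0.11, adjusted p = 0.000392). Sfrp2 was at 10.1, 8.68 and 8.80 and 14.7, 14.6 and 13.4 FPKM, 1.55-fold higher (0.58, SE 0.082, adjusted p = 0.000410). In all 3 every inhibitor library stood above every control, and all 15 alternative fits kept each call. Sfrp4, at 0.468, 0.589 and 0.431 and 0.737, 0.563 and 0.473 FPKM, had overlapping groups (0.087, SE 0.10, adjusted p = 0.554). The summed Sfrp level was 21.0 ± 0.514 FPKM in mESC controls, 28.5 ± 0.379 in inhibitor-treated mESCs, 32.1 ± 2.46 in RA controls and 55.7 ± 0.960 with RA and inhibitor. Within that last sum Sfrp1 held 41.9% ± 1.63, Sfrp5 31.5% ± 0.306 and Sfrp2 25.5% ± 1.17.

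**Figure D3:**
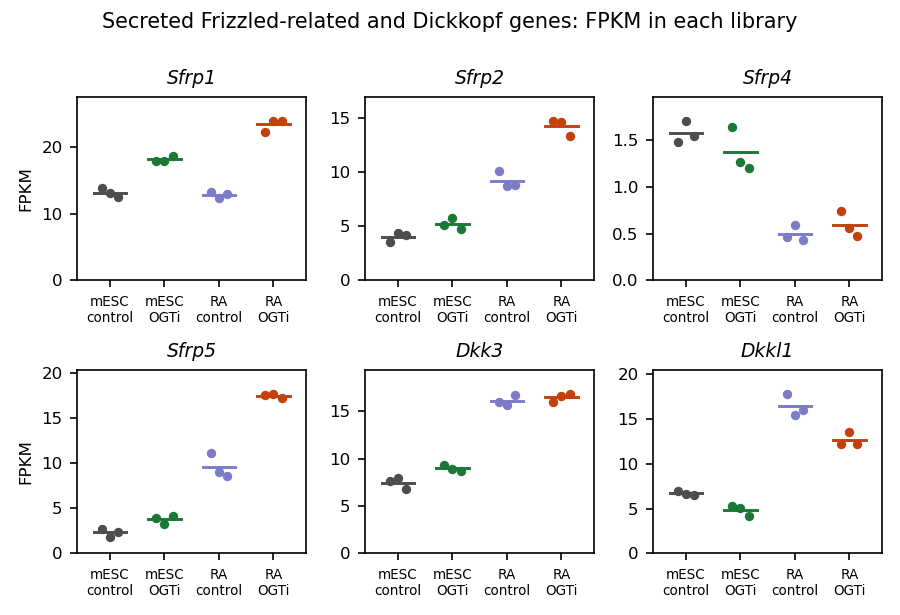
FPKM of the 4 Sfrp genes, Dkk3 and Dkkl1 in each library (points) with the group mean (bars), in mESCs and RA-treated cells without (control) and with the OGT inhibitor (OGTi); each panel has its own axis from 0. Sfrp1, Sfrp2 and Sfrp5 are higher with inhibitor in both states, and Dkkl1 is lower with it in both.

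Wnt5b (chr6:119432531-119544347) was the tested ligand that rose. It was at 1.90, 1.88 and 2.08 FPKM in RA controls and 4.30, 3.53 and 4.41 with inhibitor, 2.09-fold higher in mean and with no overlap (0.78, SE 0.14, adjusted p = 0.00175). Its share of summed Wnt FPKM was 5.88% ± 0.447 in RA controls and 11.6% ± 0.913 with inhibitor. The gene Fbxl14, on the other strand within Wnt5b, was at 15.3 to 15.4 FPKM in RA controls and 17.9 to 19.1 with inhibitor. Exons of Fbxl14 and Wnt5b overlap by 0 bases in GENCODE M21.

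Wnt6 fell further, from 1.35, 1.73 and 1.77 to 0.738, 0.756 and 0.853 FPKM (-0.55, SE 0.092, adjusted p = 0.00113), 2.07-fold lower in mean. Wnt8a was at 2.24, 2.39 and 2.03 and 1.77, 1.16 and 1.65 FPKM (-0.36, SE 0.12, adjusted p = 0.0428), a call kept in 3 of 14 alternatives. Dkkl1 fell from 17.9, 15.5 and 16.0 to 12.2, 13.6 and 12.2 FPKM (-0.35, SE 0.079, adjusted p = 0.00612). All 3 genes had every inhibitor library below every control.

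Among the receptors Fzd1 (chr5:4753839-4758035) rose from 1.72, 1.94 and 2.33 to 3.89, 4.0 and 3.16 FPKM (0.64, SE 0.10, adjusted p = 0.000922), 1.84-fold higher in mean. Fzd2 rose from 9.61, 8.08 and 9.43 to 11.9, 10.6 and 12.5 FPKM (0.34, SE 0.087, adjusted p = 0.0121) and Fzd10 from 4.23, 3.44 and 4.42 to 5.30, 5.22 and 5.36 (0.33, SE 0.087, adjusted p = 0.0145). Both of these calls were kept in 14 of 15 alternatives and lost in 1 fit that left out a library. Without the third RA library with inhibitor the adjusted p of Fzd2 was 0.0517, and without the second RA control that of Fzd10 was 0.0513. Fzd7, the most abundant receptor, was at 21.9, 21.6 and 20.4 and 19.3, 20.6 and 19.4 FPKM and was not called (-0.10, SE 0.048, adjusted p = 0.131), and Fzd5 at 6.57, 6.29 and 5.22 and 5.22, 5.26 and 5.15 was not either (-0.17, SE 0.072, adjusted p = 0.0888). Wnt9a, Wnt7b, Wnt3, Wnt4, Wnt7a, Wnt11, both R-spondins and Dkk3 were also not called. Of the 3 ligand and R-spondin genes that RA had raised most on the log2(FPKM + 1) scale, Wnt8a was called lower with inhibitor, as given above. The other two were not called, with Wnt9a at -0.086, SE 0.090, adjusted p = 0.508 and Rspo4 at 0.073, SE 0.087, adjusted p = 0.563.

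**Figure D4:**
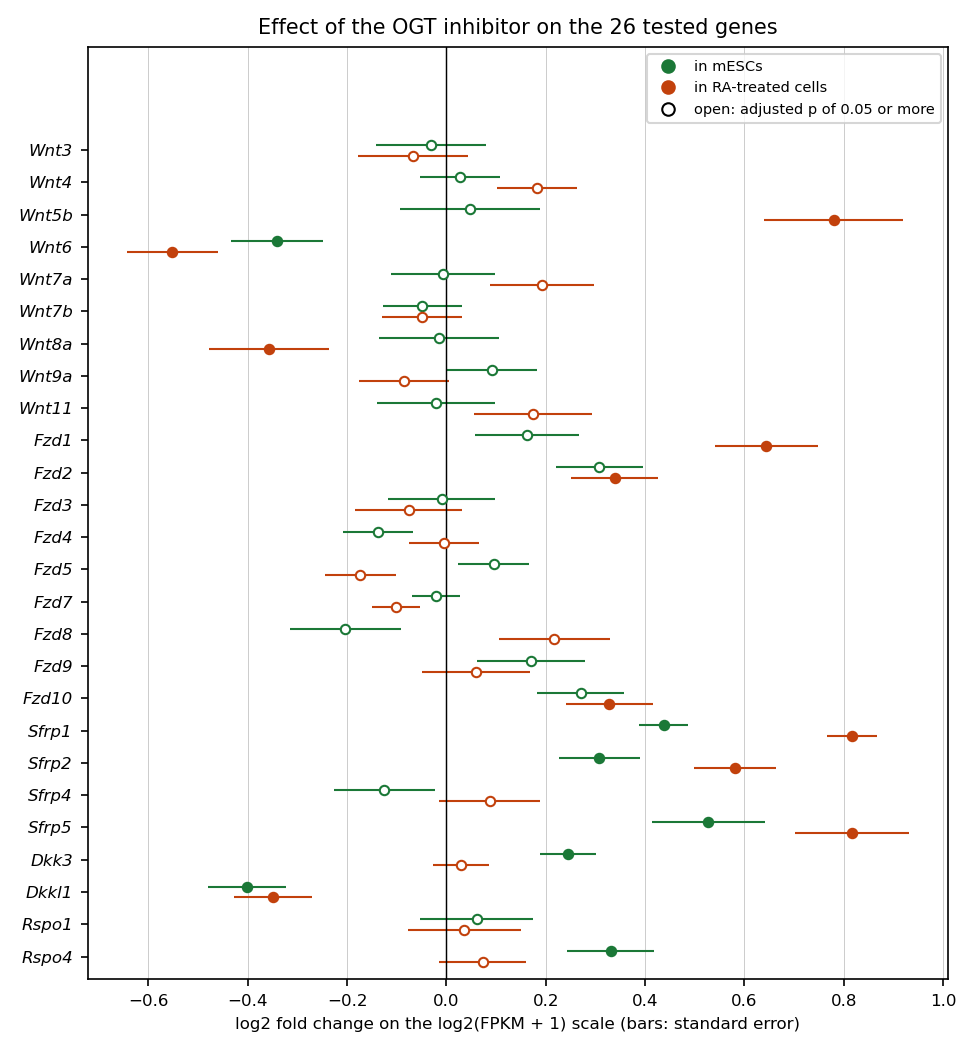
Log2 fold change with the OGT inhibitor (x axis, log2(FPKM + 1) scale) for each of the 26 tested genes in mESCs (green) and in RA-treated cells (orange), with bars for the standard error; filled points have a limma adjusted p under 0.05. Sfrp1, Sfrp2 and Sfrp5 lie to the right and Wnt6 and Dkkl1 to the left in both, and Wnt5b is far from 0 in RA-treated cells only.

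Whether the inhibitor's effect differed between the states was tested as the difference of the 2 effects. The schedule differed too, as RA-treated cells were pre-treated with the inhibitor and then spent 48 h in RA medium. A difference due to the state and one due to the schedule cannot be told apart. It differed in 2 of the 26 genes (background 7.69%), both higher in RA-treated cells (background 3.9%, and 3.79% lower). With TPM, higher genes went from 50.7% to 62.1% of those called over all genes, and both genes kept their call. For Sfrp1 the effect was larger by 0.38, SE 0.070, adjusted p = 0.0103, with adjusted p from 0.00476 to 0.0300 over its 20 alternatives, all under the threshold. For Wnt5b it was larger by 0.73, SE 0.20, adjusted p = 0.0465, with inhibitor-treated mESCs at 1.10, 0.951 and 0.700 FPKM against 0.455, 1.0 and 1.16 in controls (0.048, SE 0.14, adjusted p = 0.878). That call is weak, as 5 of 19 alternatives kept it, with adjusted p from 0.0103 to 0.188. Fzd1 (difference 0.48, SE 0.15, adjusted p = 0.0702), Sfrp5 (0.29, SE 0.16, adjusted p = 0.309) and Sfrp2 (0.27, SE 0.12, adjusted p = 0.177) were not called, so their effects are not shown to differ between the states. Wnt6 (-0.21, SE 0.13, adjusted p = 0.364) and Dkkl1 (0.053, SE 0.11, adjusted p = 0.819) were not called either.

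The 16 genes that were not tested stayed under 1 FPKM in every library. A count of 3 fragments is taken as the floor below which a level is not told from 0, for counting error only. Dkk2 was listed at 0 in all mESC libraries, where 3 fragments would be 0.0510 to 0.0552 FPKM, and reached 0 to 0.0577 FPKM in RA libraries. Dkk4 had at most 3 fragments in any library. With the filter dropped (32488 genes), RA without inhibitor raised 7 of the 16 and lowered 1, in a fit that called 38.7% of all genes. Dkk1, the Lrp5 and Lrp6 antagonist, was at 0.0786, 0.192 and 0.0778 FPKM in mESC controls and 0.635, 0.948 and 0.563 in RA controls (0.62, SE 0.10, adjusted p = 0.000563). Wnt16 was at 0.117, 0.274 and 0.274 and 0.707, 0.810 and 0.714 FPKM (0.52, SE 0.068, adjusted p = 0.000125). The others higher were Wnt10b, Wnt9b, Rspo2, Wnt5a and Wnt1, and Wnt10a was lower, at 0.721, 0.350 and 0.459 and 0.144, 0.152 and 0 FPKM. RA with inhibitor raised 10 of the 16 and lowered 1, where 37.8% of all genes were called, with Wnt2, Wnt3a and Fzd6 added to those higher.

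In mESCs the inhibitor called 0 of the 16 in limma without the filter, which called 2.04% of all genes, and 0 had an unadjusted p under 0.05. In the same fit the inhibitor raised Wnt5a, Fzd6, Wnt1 and Wnt2 and lowered Wnt16 in RA-treated cells, where 14% of all genes were called. Wnt5a, the close paralog of Wnt5b, stood at 0.212, 0.198 and 0.209 FPKM in RA controls and 0.426, 0.472 and 0.608 with inhibitor (0.31, SE 0.054, adjusted p = 0.00378). Fzd6 stood at 0.0738, 0.100 and 0.125 and 0.430, 0.633 and 0.366 FPKM (0.42, SE 0.063, adjusted p = 0.00188), from 6 to 11 fragments in controls and 33 to 57 with inhibitor. Wnt16 went from 0.707, 0.810 and 0.714 to 0.371, 0.417 and 0.257 FPKM (-0.37, SE 0.068, adjusted p = 0.00525). These genes had no overlap between the groups. Among the 16, the difference of the inhibitor's effects was called for Fzd6 (0.42, SE 0.089, adjusted p = 0.0397) and Wnt1 (0.29, SE 0.065, adjusted p = 0.0467), in a fit that called 2.51%.

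Several ligands lie side by side in GRCm38 with no other protein-coding gene between them, and calls for Wnt10a, Wnt9b, Wnt10b and Wnt1 come from the fit without the filter. Wnt6 and Wnt10a, on chromosome 1 with a gap of 6.193 kb and in the same orientation, were both lower with RA. Wnt3 and Wnt9b, 24.328 kb apart on chromosome 11 in opposite orientations, were both higher. Wnt9a had a mean of 10.1 FPKM in RA controls, while its neighbour Wnt3a, 16.175 kb away, was at 0.368, 0.457 and 0.456 FPKM in mESC controls and 0.687, 0.407 and 0.514 in RA controls, overlapping groups. Wnt10b and Wnt1, 11.706 kb apart on chromosome 15, were both higher from low levels. Exons of Fzd5, Wnt11, Sfrp2 and Wnt7b overlap those of the annotated genes Gm38058, Gm8398, Gm26771 and AU022754 by 1233, 364, 347 and 324 bases. Among the untested genes, exons of Rspo3, Wnt5a and Fzd6 overlap those of Gm48159, Gm2670 and Gm26704 by 404, 358 and 152 bases. Whether counting used strand was not stated in the labels, so fragments from these overlaps are uncertain.

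The rest of the pathway is given from 7 lists, some of which share genes, so that the extracellular genes can be read beside their partners. Here too some genes passed the filter through a single state. Among them, Wls, Ror1, Tspan12, Sp5, Sp8 and Cdx2 passed only through RA libraries and Lef1 only through mESC libraries. For such genes the filter built in the direction with RA, so their part of the counts below is no test of it. Over the 76 different genes tested in them, RA without inhibitor raised 34 and lowered 28, 81.6% against 70.9% of all genes, and the inhibitor in RA-treated cells raised 18 and lowered 13, 40.8% against 31.9%. In Wnt processing and secretion, RA without inhibitor raised 3 and lowered 2 of 6 tested genes. Wls, the carrier that takes Wnts to the cell surface, went from 0.398, 0.257 and 0.308 FPKM to 5.17, 5.46 and 5.28 (2.26, SE 0.076, adjusted p = 4.85e-10), and with inhibitor in RA-treated cells to 7.50, 7.20 and 7.47 (0.41, SE 0.076, adjusted p = 0.00199). Notum, which removes the lipid from Wnts, fell with RA (-1.05, SE 0.085, adjusted p = 5.06e-07) and was higher with inhibitor both in mESCs (0.43, SE 0.085, adjusted p = 0.0147) and in RA-treated cells (0.37, SE 0.085, adjusted p = 0.00716). On the list of other Wnt antagonists, which holds secreted and cell-surface proteins, 4 of 10 genes were tested. RA raised 3 of these, Wif1, Apcdd1 and Tpbg, and the inhibitor raised 3 in RA-treated cells, Igfbp4, Tpbg and Apcdd1. Igfbp4 was at 4.74, 4.82 and 4.39 FPKM in RA controls and 8.16, 7.22 and 9.89 with inhibitor (0.73, SE 0.096, adjusted p = 0.000276).

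Of 13 tested coreceptors and receptor turnover genes, RA raised 5 and lowered 6, and the inhibitor in RA-treated cells raised 5 and lowered 1. The background for these counts and those below is 70.9% of all genes called with RA and 31.9% with the inhibitor in RA-treated cells. Lrp5 was higher with the inhibitor in mESCs (0.34, SE 0.053, adjusted p = 0.00583) and in RA-treated cells (0.32, SE 0.053, adjusted p = 0.000957). Ror2, a receptor for Wnt5a-type ligands, was at 9.22, 8.24 and 9.50 FPKM in RA controls and 11.9, 11.9 and 11.7 with inhibitor (0.36, SE 0.066, adjusted p = 0.00190). The cytoplasmic list had 8 higher and 6 lower of 20 with RA, and 3 higher and 2 lower with inhibitor in RA-treated cells. Its Ctnnb1, which encodes beta-catenin, was at 154 ± 3.74 FPKM in mESC controls, 161 ± 1.57 in inhibitor-treated mESCs, 138 ± 1.26 in RA controls and 165 ± 3.27 with RA and inhibitor. On the deposited scaling it fell slightly with RA (-0.16, SE 0.038, adjusted p = 0.00283) and rose with inhibitor in RA-treated cells (0.26, SE 0.038, adjusted p = 0.000511). With total-fragment scaling the median RA change over all genes moved from -0.035 to 0.15, so the direction of so small a fall is not settled.

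Of 13 nuclear TCF factors and cofactors, RA raised 4 and lowered 8, and the inhibitor in RA-treated cells raised 1 and lowered 4. Lef1 was at 1.43, 1.55 and 1.30 FPKM in mESC controls and 0.249, 0.164 and 0.174 in RA controls (-1.02, SE 0.099, adjusted p = 2.29e-06). Known beta-catenin targets did not move as one with RA, with 7 of 13 higher and 6 lower, and with inhibitor in RA-treated cells 2 were higher and 2 lower. The widely used targets Axin2 and Sp5 rose with RA (0.33, SE 0.063, adjusted p = 0.000592, and 0.32, SE 0.094, adjusted p = 0.00968) and were not called with inhibitor in RA-treated cells (-0.036 and 0.20). As given above, Sp5 and Lef1 each passed the filter through a single state, so their direction with RA was built in. Cdx1, a target of both Wnt and RA, rose with RA (1.99, SE 0.098, adjusted p = 8.09e-09), and Myc and Ccnd1 fell (-1.70 and -1.35). In the list for planar cell polarity and non-canonical signalling RA raised 7 and lowered 4 of 14, and the inhibitor in RA-treated cells raised 4 and lowered 3. Prickle1 rose with RA (1.42, SE 0.073, adjusted p = 1.21e-08) and Rhoa fell with inhibitor in RA-treated cells (-0.57, SE 0.051, adjusted p = 2.77e-05).

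**Figure D5:**
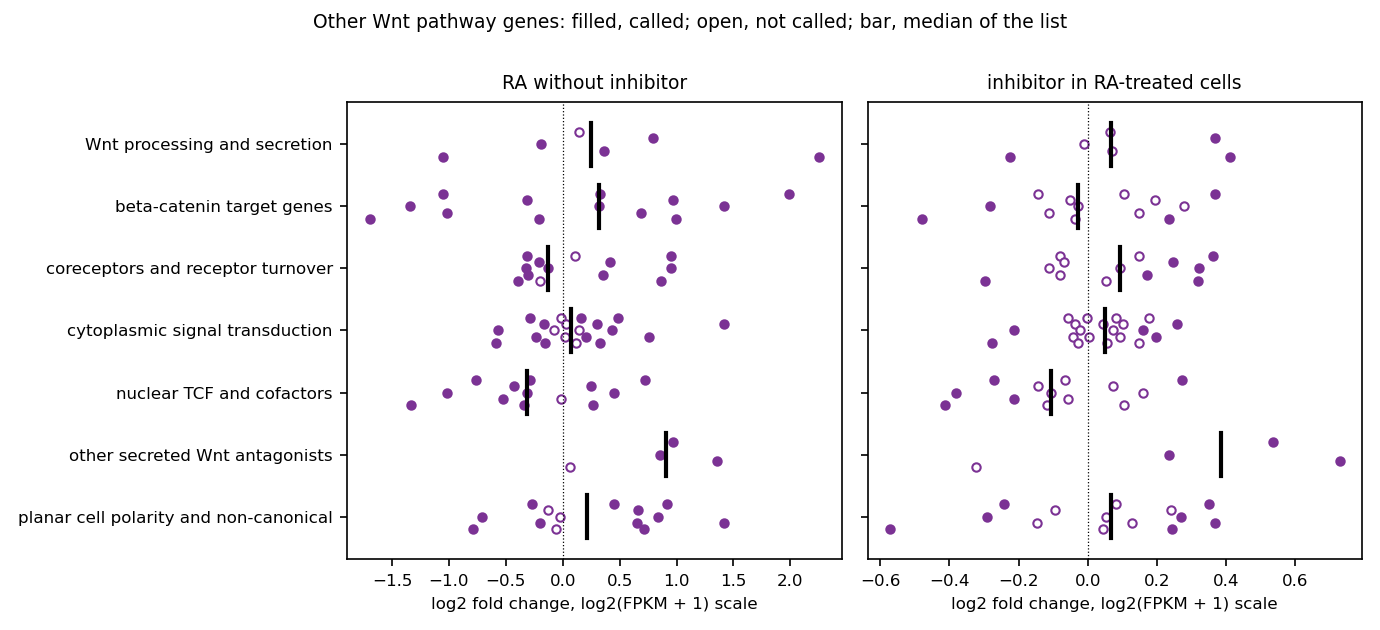
Log2 fold change (x axis, log2(FPKM + 1) scale) of each tested gene in 7 lists of other Wnt pathway genes, for RA without inhibitor (left) and inhibitor in RA-treated cells (right); filled points have a limma adjusted p under 0.05, and the black bar is the median of the list. Medians run from -0.31 (nuclear factors) to 0.91 (the list labelled other secreted Wnt antagonists) on the left. On the right they run from -0.11 to 0.39, and the axes differ between the panels. The antagonist list includes cell-surface proteins.

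In undifferentiated mESCs the inhibitor changed 9 of the 76 genes, 11.8% against 7.78% of all genes. By list, with 1 of the genes on 2 lists, these were 1 higher and 1 lower for secretion, 1 higher for the other antagonists (Igfbp4), 1 higher for coreceptors (Lrp5), 1 higher for the cytoplasmic list, 2 higher and 1 lower for nuclear factors, and 1 higher and 1 lower for targets. In the planar cell polarity list limma called 0 of 14, with 2 at an unadjusted p under 0.05 and 1 called by limma-voom.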

How the data were processed

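RNA sequencing libraries of R1 cells, 3 in each of 4 groups, were analysed, grouped by the sample titles. The authors deposited FPKM values per gene with gene lengths and GRCm38 coordinates. Per the submitters' processing notes, HISAT2 2.0.5 and featureCounts 1.5.0 were used. How strand was treated and how FPKM were computed is not stated in the labels. Whole fragments, and with them the depth, were recovered from the deposited FPKM and gene lengths for 100% of values (tolerance 0.02). Within groups, the chi-square per gene between libraries was 3.74 to 9.96, above sampling noise for each pair.

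The values log2(FPKM + 1) of 12 libraries were fitted together in limma 3.58.1 (R 4.3.3), with its trend option. Of 54555 genes, the 14866 that reached 1 FPKM in at least 3 libraries entered. Tests were two-sided with Benjamini-Hochberg adjustment over all genes tested, called under 0.05, in 5 comparisons. The log scale with a pseudocount of 1 understates changes of low genes. The procedure was tested on simulated data. Alternatives tried were no filter, a pseudocount of 0.1, a filter at a mean of 5 FPKM, TPM and total-fragment scaling, no trend, the replicate number as a block, a fit of the compared groups, limma-voom on the recovered fragments, and each library left out.

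All tested genes of the 5 families are named, and of each of 7 pathway lists up to 3 called genes with the largest change per comparison were eligible, plus Axin2, Lef1, Sp5 and Ctnnb1. The genes and lists were chosen with earlier results of these data known. Gene spans and exons were checked against GENCODE M21, where 42 of 42 identifiers matched and 41 had the same coordinates.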

Additional observations from a re-analysis of the deposited data

Results flagged for a closer look

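In 2 of the genes the inhibitor's effect differed between undifferentiated and RA-treated cells in the test of the difference itself. The schedule of the inhibitor differed between these cells as well, and cannot be told apart from their state. The effect on Sfrp1 was larger in RA-treated cells by 0.38 on the log2(FPKM + 1) scale (SE 0.070, limma adjusted p = 0.0103), with every inhibitor library above every control in both states. The effect on Wnt5b was larger by 0.73 (SE 0.20, limma adjusted p = 0.0465). In mESCs the Wnt5b groups overlapped, and in RA-treated cells they did not. The smallest Wnt5b value was 0.455 FPKM in the first mESC control, against 1.00 and 1.16 in the others.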

How the results depend on the processing

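The count of the 26 genes called for the inhibitor in mESCs was 7, and 1 in a fit of the compared groups only, 4 with limma-voom, 3 with no filter and 2 to 6 with 1 library left out. Of the 24 genes called for RA without inhibitor, 10 passed a filter at a mean of 5 FPKM and all 10 were called there, and 24 were called in each fit with a library left out. For the inhibitor in RA-treated cells the 10 called became 6 under that filter and 8 to 10 with a library left out. For RA with inhibitor the 25 became 11 under that filter and stayed at 25 with a library left out. Fewer genes of the families were tested under that filter. The difference of effects, called in 2, was called in 1 (Sfrp1) under that filter, with limma-voom, with a pseudocount of 0.1 and with the replicate block, and in 1 to 2 with a library left out. The change of Sfrp1 with RA without inhibitor reversed, from -0.031 to 0.19 with TPM and 0.18 with total-fragment scaling. The cause was not tested. Replicate numbers were not taken to pair the libraries, as the labels do not say what they mark. Same-numbered deviations correlated at -0.021 to 0.12, with 3 of 18 pairs over 0.1, and libraries correlated best with their own number in 18 of 36 checks. Each check chose among the 3 libraries of a group, so these values do not settle whether the numbers pair the libraries. With the replicate block the counts were 6, 24, 9, 25 and 1, in the order above with the difference last. Of the single-gene values under all alternatives 1923 kept their side of the threshold, 76 lost their call, 9 gained one and 2 reversed. A reversal was counted only where the main or the alternative fit called the gene. The 1923 can therefore include changes of sign in genes that neither fit called. Depth limits the 16 untested genes, where a floor of 3 fragments holds for counting error only.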
